A study of Mus musculus with 103 samples.

Results

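The metallothioneins and their zinc-handling partners are described here by 6 genes: the metallothioneins Mt1, Mt2 and Mt3, the metal-responsive transcription factor Mtf1, the zinc exporter Slc30a1 and the zinc importer Slc39a10. They were taken by symbol from the deposited tables, in which each had 1 entry, among 23339 entries of the RNA-seq table and 20282 of the GRO-seq table. The members were chosen by measured values, since nascent Mt1 RNA was much higher after an adenovirus carrying Cre recombinase (Adeno-Cre) in cells with floxed Ctcf and Wapl. The values of that contrast are therefore given as a description, with no test.

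The cells were embryonic fibroblasts (MEFs) from C57BL/6 mice at E13.5, kept quiescent. Poly(A) RNA-seq was available for 29 samples and global run-on sequencing (GRO-seq), which labels the RNA that engaged polymerases are making, for 10, out of 103 samples. ChIP-seq was left aside. The study asked how transcription, the insulator protein CTCF and the cohesin release factor Wapl position cohesin. Adeno-Cre cells had 4 h of virus followed by 10 d of rest, and they were wild-type (2 clones), Ctcf fl/fl (2 clones) or Ctcf fl/fl Wapl fl/fl cells. Hydroxytamoxifen cells had 2 to 3 d of 4'hydroxytamoxifen followed by 10 d of rest. All of these carried 1 Rosa26 allele of Cre-ER, a Cre that the drug activates, either alone (2 clones) or with Smc3 fl/fl (clone 1), Smc3 fl/- (clones 2, 3 and 4) or Wapl fl/- (2 clones). Untreated cells of each genotype rested for 10 d. Untreated Smc3 fl/- and Wapl fl/- cells therefore already lacked 1 allele. A clone gave both an untreated and a treated library. The sources used here do not say whether each clone came from its own embryo, and p-values therefore measure the spread between these clones.

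Metallothioneins are small, cysteine-rich proteins that bind zinc and copper and buffer the free metal in the cell. When free zinc rises, the zinc-finger factor MTF-1 binds metal response elements (MREs) in the promoters of Mt1, Mt2 and Slc30a1 and switches them on, and it is known to repress Slc39a10. Glucocorticoids, oxidative stress and inflammatory signals also induce Mt1 and Mt2, which are made in most tissues, whereas Mt3 is known mainly from the brain.

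The 3 metallothionein genes lie together on mouse chromosome 8, in the order Mt3, Mt2, Mt1. In the RefSeq annotation of build GRCm38.p6, 18.5 kb separated Mt3 from Mt2 and 5.3 kb separated Mt2 from Mt1, all on the plus strand. The deposited values were made on build mm9, so no position of the data is given. Promoter windows were taken from RefSeq (GRCm38.p6) for all 6 genes, with 2 annotated starts for Slc39a10. Each was searched on both strands for the 7-base MRE core, written TGCACNC or TGCGCNC. The windows of the 3 genes with a match in the 250 bases before the start are shown because these are the genes MTF-1 is known to activate. Capitals mark the cores, and the windows are chr8:94178839-94179088 (Mt1), chr8:94172368-94172617 (Mt2) and chr1:191906531-191906780 (Slc30a1), all on the plus strand, 5′ to 3′.
Mt1: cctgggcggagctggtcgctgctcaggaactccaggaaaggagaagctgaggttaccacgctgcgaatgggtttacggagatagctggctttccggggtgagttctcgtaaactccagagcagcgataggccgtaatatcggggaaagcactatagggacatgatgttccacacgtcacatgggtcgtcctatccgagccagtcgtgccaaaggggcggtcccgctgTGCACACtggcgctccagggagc
Mt2: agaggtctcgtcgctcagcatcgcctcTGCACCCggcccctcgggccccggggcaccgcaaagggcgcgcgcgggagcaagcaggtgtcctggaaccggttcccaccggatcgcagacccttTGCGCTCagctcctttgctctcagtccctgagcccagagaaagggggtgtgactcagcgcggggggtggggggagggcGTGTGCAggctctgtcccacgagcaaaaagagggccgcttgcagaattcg
Slc30a1: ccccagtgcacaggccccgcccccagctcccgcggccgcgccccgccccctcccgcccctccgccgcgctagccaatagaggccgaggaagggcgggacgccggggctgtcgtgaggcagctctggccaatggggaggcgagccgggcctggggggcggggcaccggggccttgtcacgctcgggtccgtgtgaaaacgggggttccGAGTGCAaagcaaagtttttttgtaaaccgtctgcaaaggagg
The Mt1 window held 1 core, whose first base lay at −23 from the annotated start. The Mt2 window held 3, at −223, −128 and −50, the last of them on the opposite strand. The Slc30a1 window held 1, at −43, also on the opposite strand. No core was found in the windows of Mt3, Mtf1 or either start of Slc39a10. Among 32841 RefSeq windows of the same length, 21.4% held at least 1 core and 1.26% held at least 3. Adding the 50 bases after the start raised the counts to 3 for Mt1, 4 for Mt2, 2 for Slc30a1 and 1 for Mt3, against 1.97% of all 300-base windows with at least 3. The Mt1 entry in RefSeq begins 206 bases before the transcript start used for this window, so the window depends on which start is taken. A start further downstream would take in the bases that added the further Mt1 cores, and bases beyond those 50 were not searched. The Slc30a1 entry likewise begins before the start used for its window. A match is only a match of letters.

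The deposited values are RPKM (reads scaled to transcript length and library size) for RNA-seq and TPM for GRO-seq. Each RNA-seq library held 7.7 to 38.6 M reads in genes, as recovered from the RPKM steps. Fibroblast markers were present in every library, with all 9 listed genes detected and a summed level of 6619 to 17105 RPKM. Endothelial, epithelial, and astrocyte or neuron marker lists summed to at most 7.29, 27.2 and 12.0 RPKM. The 7 macrophage markers summed to between 20.3 and 2497 RPKM, so these cultures did not lack macrophage transcripts. Ctcf mRNA was lower in Ctcf fl/fl cells after Adeno-Cre (4.04 and 4.23 RPKM, against 11.6 and 13.2), and Wapl mRNA (listed as Wapal) was lower in Wapl fl/- cells after hydroxytamoxifen (0.780 and 0.914 RPKM, against 1.48 and 1.80). For Smc3 itself, the libraries labelled Smc3 floxed with hydroxytamoxifen had no less mRNA (10.9 to 13.2 RPKM, against 7.62 to 10.5 untreated), a whole-transcript value that does not show whether the floxed part was lost. A further 2 Adeno-Cre libraries, both labelled clone 3 of the Ctcf fl/fl Wapl fl/fl genotype, were deposited in a separate table and carry the same labels as each other, but Ctcf stood at 3.17 RPKM in the first and 7.62 RPKM in the second. They were not joined to the other libraries.

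Mt1 was the most abundant of the 6 mRNAs in every group of the main table. In the second library of the separate table Mt2 was higher (554 RPKM, against 478 RPKM for Mt1). The mean RPKM of Mt1 over the 27 libraries of the main table was the 49th highest in the table, and that of Mt2 the 123rd. In the 14 untreated libraries Mt1 ranged from 422 to 767 RPKM with a median of 534, a spread of 1.82-fold. Mt2 ranged from 117 to 586 RPKM (median 287), a spread of 5.02-fold. The lowest Mt2 levels, 160 and 117 RPKM, were in the untreated Wapl fl/- clones, and the highest, 586 RPKM, was in untreated clone 4 of the Ctcf fl/fl Wapl fl/fl genotype. Mtf1 (3.50 to 5.01 RPKM), Slc30a1 (2.18 to 4.71 RPKM) and Slc39a10 (1.80 to 4.87 RPKM) were low in all untreated libraries. Mt3 was the most variable, from 0.226 to 20.3 RPKM. Behind these values lay 2868 to 22757 reads per library for Mt1 and 1068 to 11892 for Mt2, but only 2 to 249 for Mt3, so that counting error is large for Mt3 alone.

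In wild-type cells, Mt1 mRNA rose after Adeno-Cre although no allele was floxed. It stood at 510 RPKM in untreated clone 2 and 993 RPKM with Adeno-Cre, and at 618 and 1442 RPKM in clone 3. Both treated libraries lay above both untreated ones. The share of all tested genes that separate in this way was not counted, here or in the comparisons below. Such separation is therefore only a description. The difference in Mt1 was 1.09 on the log2(RPKM + 1) scale (SE 0.22, 95% interval 0.62 to 1.56, adjusted p = 0.0129 by limma). In bulk RNA, more RNA per cell and a larger share of expressing cells cannot be told apart. Mt2 went from 279 to 491 RPKM in clone 2 and from 472 to 689 RPKM in clone 3. Each clone's treated library was the higher, and the difference of 0.68 (SE 0.31) had an adjusted p of 0.243, or 0.0391 when the clone was fitted as a block. Mt1 was thus 1 of 6 members past the threshold, on a background of 2.7% of 12604 tested genes called higher. With the block 2 members passed, Mt1 and Mt2, and so did 15.8% of all tested genes in that direction. For Mtf1, Slc30a1, Slc39a10 and Mt3 the log2 differences were 0.11, −0.19, −0.19 and 0.12, each with an interval that included 0.

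In Ctcf fl/fl cells, where Ctcf mRNA was lower but still present after Adeno-Cre, Mt1 mRNA rose as well, while Mt2 did not pass the test. Mt1 stood at 422 RPKM untreated and 1131 RPKM with Adeno-Cre in clone 1, and at 585 and 1041 RPKM in clone 2. The groups did not overlap, and the difference was 1.13 (SE 0.22, 95% interval 0.66 to 1.59, adjusted p = 0.00316 by limma). Mt2 went from 256 to 379 RPKM in clone 1 and from 327 to 252 RPKM in clone 2, in opposite directions, with a difference of 0.09 (SE 0.31, 95% interval −0.55 to 0.74). Mt1 was again 1 of 6 members called, against 5.04% of all tested genes called higher. The Mt1 change in Ctcf fl/fl cells minus that in wild-type cells was 0.04 (SE 0.32, 95% interval −0.63 to 0.70, adjusted p = 1), and for Mt2 it was −0.59 (95% interval −1.49 to 0.32, adjusted p = 0.845). By limma no member passed the threshold for this difference, where 1.46% of tested genes passed. At an unadjusted p under 0.05 there were 0 members and 1139 of 12604 tested genes.

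**Figure D1:**
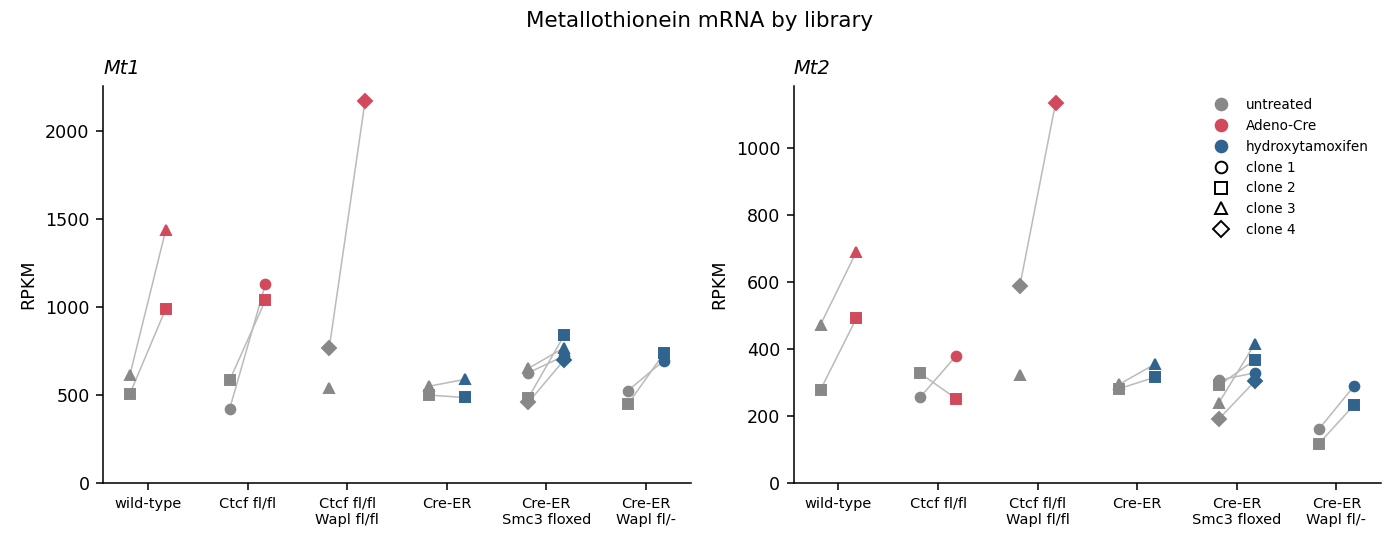
RPKM of Mt1 and Mt2 in each of the 27 libraries of the main RNA-seq table, by genotype; points are single libraries, marker shapes are clones and lines join the untreated and treated library of a clone. All 5 Adeno-Cre libraries have Mt1 above every untreated library, between 993 and 2172 RPKM against 422 to 767.

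Over all tested genes, the Adeno-Cre change varied with transcript length. Mt1 and Mt2 are among the shortest mRNAs, at about 578 and 593 bases as recovered from the RPKM steps. Among 449 tested genes of 400 to 800 bases, the median log2 change with Adeno-Cre was 0.53 in wild-type and 0.23 in Ctcf fl/fl cells, against 0.04 and 0.05 over all tested genes. In that length class 31 genes rose more than Mt1 in wild-type cells and 21 in Ctcf fl/fl cells. With the trend over length removed, the Mt1 change was 0.48 in wild-type cells (adjusted p = 0.512) and 0.82 in Ctcf fl/fl cells (adjusted p = 0.0657), so neither remained past the threshold. The wild-type call was also lost without untreated clone 2 (0.95, adjusted p = 0.134), without untreated clone 3 (1.23, adjusted p = 0.0534) or without treated clone 3 (0.82, adjusted p = 0.0858), and the Ctcf fl/fl call without untreated clone 1 (0.89, adjusted p = 0.0851). Over all alternatives run, the adjusted p of Mt1 ranged from 0.00248 to 0.512 in wild-type and from 0.00123 to 0.0851 in Ctcf fl/fl cells. The summed macrophage markers were 73.6 and 1124 RPKM in untreated wild-type libraries and 51.9 and 668 RPKM with Adeno-Cre, and 226 and 461 RPKM against 208 and 288 RPKM in Ctcf fl/fl cells. Their part, and that of transcript length, in the Mt1 result was not tested beyond these values.

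**Figure D2:**
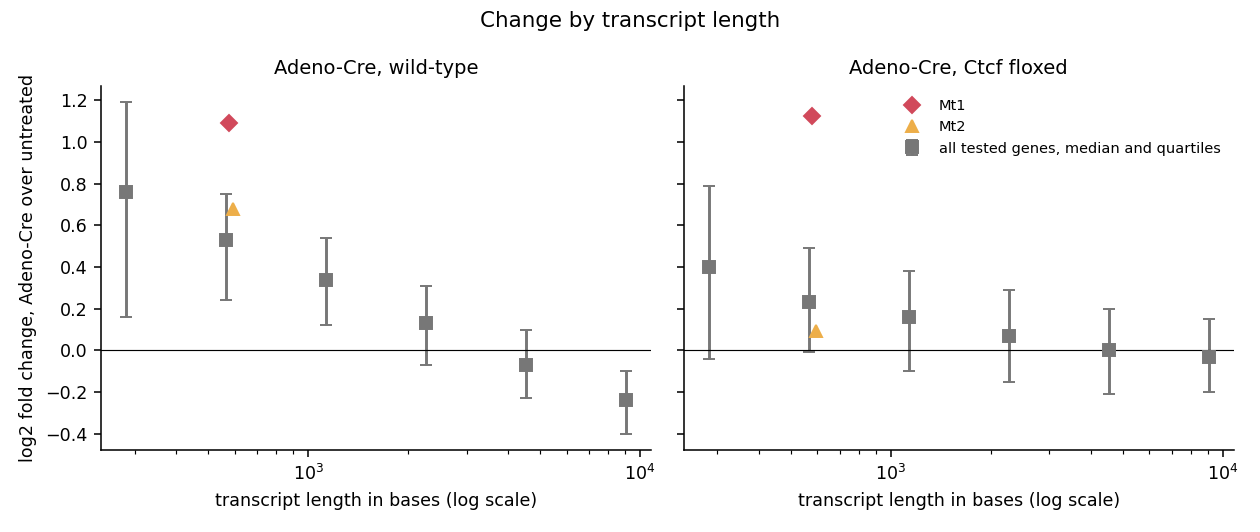
Log2 fold change with Adeno-Cre (y axis) against transcript length in bases (x axis, log scale) in wild-type and Ctcf fl/fl cells; grey squares and bars are the median and quartiles of all tested genes in each length class, and the diamond and triangle are Mt1 and Mt2. In wild-type cells the median of the 400 to 800 base class was 0.53, with Mt2 at 0.68 close to it and Mt1 at 1.09 above its upper quartile of 0.75.

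Nascent Mt1 RNA, the readout that chose this group, stood at 76.1 TPM in untreated and 1786 TPM in Adeno-Cre treated Ctcf fl/fl Wapl fl/fl cells, a ratio of 23.5. Each column is the authors' pool of 2 libraries (clones 1 and 2), so no spread can be given. Of 16032 genes with at least 1 TPM in either column and more than 0 in the untreated one, 2 had a higher ratio. Mt1 alone held 0.893% of all TPM in the Adeno-Cre column, against 0.0381% in the untreated column. Nascent Mt2 RNA went from 27.5 to 88.1 TPM, a ratio of 3.20 and the 301st highest. Slc30a1 (7.08 to 9.18 TPM, ratio 1.3) and Slc39a10 (13.1 to 16.0 TPM, ratio 1.22) had ratios above 1, Mtf1 was lower (5.91 to 2.94 TPM, ratio 0.498), and Mt3 was listed at 0 in both. Thus 2 of 5 measured members were at least 2-fold higher and 1 at least 2-fold lower, on backgrounds of 5.85% and 37.5%. TPM values are shares of a fixed total, and the median gene had a ratio of 0.59. Rescaling the columns by the median of ratios gave 36.0 for Mt1, 4.90 for Mt2, 1.99 for Slc30a1 and 1.87 for Slc39a10, and moved Mtf1 to 0.763, no longer 2-fold lower.

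Nascent RNA of the cluster's neighbours is given as a description. The Mt1 ratio chose this group, so falling short of it is no result about them. In the same columns Nudt21, which encodes an mRNA 3′-end processing factor, had a ratio of 0.614. Bbs2 (0.701), Ogfod1 (0.706), the nuclear pore gene Nup93 (0.622), Slc12a3 (0.506) and the stress-induced gene Herpud1 (0.533) ranged likewise around the median gene's 0.59. Mt4, an epithelial metallothionein of the same cluster, was listed at 0 in both. None of the 6 measured neighbours was 2-fold higher or lower, beside 5.85% of all genes at least 2-fold higher and 37.5% at least 2-fold lower.

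DRB stops most elongation by RNA polymerase II, and its removal lets transcription resume. Adeno-Cre treated Ctcf fl/fl Wapl fl/fl cells were also profiled after 3.5 h of DRB, and after the same exposure followed by 1 d without DRB, as 1 library each with no clone given. Those columns had a smaller total than the others (100000 against 200000 TPM), so their values were multiplied by 2.0. Nascent Mt1 RNA was 1786 TPM with Adeno-Cre alone, 544 TPM with DRB and 731 TPM after washout. In TPM it was therefore lower than without DRB in both libraries, with ratios of 0.304 and 0.409. In TPM Mt2 went the other way, from 88.1 to 211 with DRB (ratio 2.40) and 143 after washout (ratio 1.62). The Adeno-Cre value of Mt1 chose this group, so lower Mt1 values in other libraries were to be expected in part. The median gene had ratios of 0.57 with DRB and 1.02 after washout. Every column was brought to the same sum, and DRB stops most elongation. A higher TPM with DRB therefore does not show that more nascent Mt2 RNA was made. Absolute amounts of nascent RNA were not tested. Slc30a1 had 9.18, 11.6 and 8.77 TPM and Mtf1 2.94, 2.38 and 3.9 TPM. Slc39a10 had 16.0, 8.63 and 14.3 TPM (DRB ratio 0.539), the lowest of the 3 with DRB. Among 13757 genes, 13.1% were at least 2-fold higher and 45.3% at least 2-fold lower with DRB, and after washout 6.28% of 13826 were higher and 13.7% lower. These backgrounds stand beside 1 member higher (Mt2) and 1 lower (Mt1) with DRB and 1 lower (Mt1) after washout. The authors' pooled wild-type column, whose source libraries are not given in the sources used here, had 290 TPM for Mt1, 60.1 for Mt2, 0.164 for Mt3, 3.3 for Mtf1, 8.20 for Slc30a1 and 10.1 for Slc39a10. Its Mt1 and Mt2 values lay above those of untreated and below those of Adeno-Cre treated Ctcf fl/fl Wapl fl/fl cells.

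**Figure D3:**
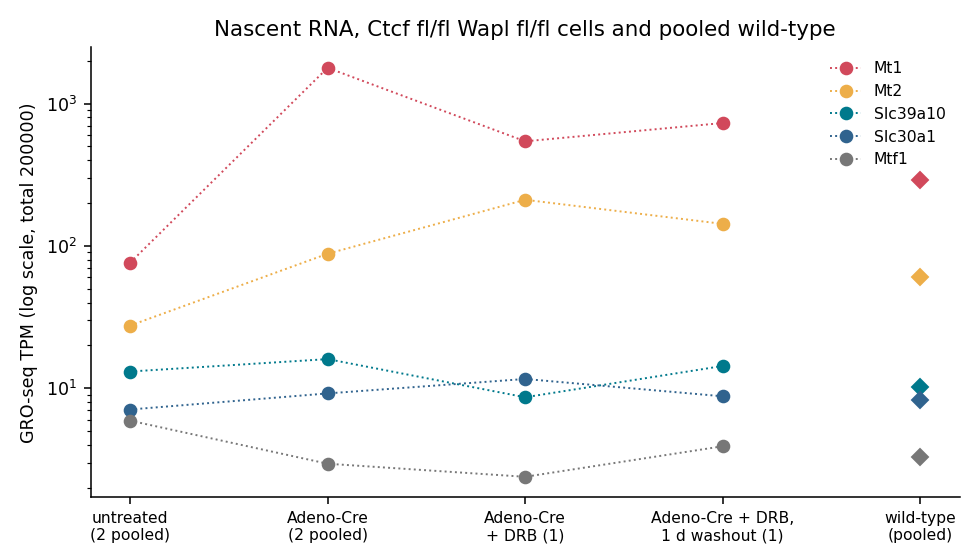
GRO-seq TPM on a log scale, all columns brought to a total of 200000, in Ctcf fl/fl Wapl fl/fl cells under 4 conditions and in the pooled wild-type column (diamonds); each point is 1 column and dotted lines only link a gene's points. Mt1 moves from 76.1 to 1786 TPM with Adeno-Cre and to 544 TPM with DRB, whereas Mt2 is highest, at 211 TPM, with DRB; whether TPM is scaled to length is not stated, so genes should be compared by their changes.

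At the level of mRNA the same genotype showed a smaller difference. Mt1 was 541 RPKM in untreated clone 3, 767 RPKM in untreated clone 4 and 2172 RPKM in clone 4 with Adeno-Cre, the highest value of all 27 libraries. Within clone 4 the ratio was 2.83, against 23.5 for nascent RNA in clones 1 and 2. Mt2 stood at 324, 586 and 1133 RPKM, a within-clone ratio of 1.93. Mtf1 (3.50, 4.15 and 6.72 RPKM), Slc30a1 (2.89, 4.65 and 6.55 RPKM) and Slc39a10 (2.05, 4.82 and 8.90 RPKM) were also at their highest in the treated clone 4 library, and Mt3 was at 0.609, 0.956 and 1.58 RPKM. With 1 treated library this has no replicate check. Mt1 was the 1 of 6 members at least 2-fold higher within clone 4, where 8.16% of 11693 genes were (and 7.53% were at least 2-fold lower). With the mean of both untreated clones as the base, the ratios were 3.32 for Mt1, 2.49 for Mt2, 2.59 for Slc39a10 and 2.01 for Mt3. For this base, which mixes clones, the share of all genes at least 2-fold higher was not counted. Mt3 had 16 reads in the treated library. In the separate table Mt1 was 1957 RPKM in the first library and 478 RPKM in the second, and Mt2 was 1093 and 554 RPKM. This table was normalized apart, so its levels stand beside the others only as values. In the main table Ctcf was 9.26 and 12.5 RPKM in the untreated clones and 3.76 RPKM in treated clone 4, with the second library's 7.62 RPKM in between. In the first and second library Slc30a1 was 4.05 and 2.60 RPKM, Slc39a10 was 3.97 and 2.28 RPKM, Mtf1 was 4.70 and 4.27 RPKM, and Mt3 was 0.505 and 0.0533 RPKM.

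No change of Mt1 with hydroxytamoxifen was detected in cells with Cre-ER alone. Mt1 was 501 RPKM untreated and 488 RPKM treated in clone 2, and 551 and 590 RPKM in clone 3. The groups overlapped, the difference was 0.03 (SE 0.22, 95% interval −0.44 to 0.50), and limma called none of the 6 members and 0% of all tested genes. At an unadjusted p under 0.05 there were 0 members and 41 of 12604 genes. Mt2 was 282 and 316 RPKM in clone 2 and 295 and 355 RPKM in clone 3, a difference of 0.21 (SE 0.31).

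In the libraries labelled Smc3 floxed, in which the core cohesin subunit gene Smc3 is the target, Mt1 was higher in the treated library of all 4 clones. It went from 628 to 724 RPKM in clone 1, 486 to 842 in clone 2, 653 to 771 in clone 3 and 460 to 702 in clone 4. The lowest treated library lay above the highest untreated one. The difference of 0.46 (SE 0.16, 95% interval 0.13 to 0.79) had an adjusted p of 0.0567, or 0.0146 with the clone block and 0.0338 without untreated clone 3 (range over all alternatives 0.0146 to 0.185). Mt2 went from 307 to 329, 292 to 367, 240 to 415 and 192 to 304 RPKM in clones 1 to 4. It was higher in each clone, while the untreated and treated libraries overlapped narrowly, and the difference was 0.47 (SE 0.22, adjusted p = 0.161, or 0.0291 with the block). At an unadjusted p under 0.05 there were 2 members and 3521 of 12604 tested genes. Without the block limma called no member, where it called 9.37% of tested genes higher and 5.6% lower. With the block it called 2 members, Mt1 and Mt2, where it called 24% of tested genes higher. Markers of other cells moved in these libraries too. The macrophage markers summed to 30.5 to 1114 RPKM untreated and 20.3 to 172 RPKM treated, with none of 7 called without the block and 4 lower with it, among them Ctss (−2.31, adjusted p = 0.213, or 0.00431 with the block). The fibroblast markers summed to 11275 to 16134 RPKM untreated and 9056 to 12583 RPKM treated. Without the block 1 of 9 fell, the collagen gene Col1a1 (−0.80, SE 0.23, adjusted p = 0.0215), and with it 3 of 9 did. The block called 36.6% of all tested genes in either direction. The part of either list in the Mt1 and Mt2 values was not tested.

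In the cells with Wapl fl/-, Mt2 was the member with the larger difference. It stood at 160 RPKM untreated and 291 RPKM treated in clone 1, and at 117 and 234 RPKM in clone 2. Both treated libraries lay above both untreated ones, with a difference of 0.93 (SE 0.31, 95% interval 0.29 to 1.57, adjusted p = 0.13, or 0.0158 with the block). The share of all tested genes that separate in this way was, as above, not counted. Mt1 went from 527 to 698 RPKM in clone 1 and from 450 to 738 RPKM in clone 2, also without overlap, a difference of 0.56 (SE 0.22, adjusted p = 0.227, or 0.0558 with the block). At an unadjusted p under 0.05 there were 3 members and 1855 of 12604 tested genes. Without the block limma called no member, on a background of 1.5% of genes called higher. With the block it called 1, Mt2, on a background of 7.62%. The macrophage markers in the same libraries summed to 1748 and 2497 RPKM untreated and 484 and 1481 RPKM treated. Limma called none of these 7 markers, with or without the block (0 at an unadjusted p under 0.05). The part of these markers in the Mt2 result was not tested.

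None of the 6 members passed limma's test of the Smc3 change minus the Cre-ER change, in which 1.23% of genes did, or of the Wapl change minus the Cre-ER change, in which 0.143% did. At an unadjusted p under 0.05 there were 0 members in either, against 1451 and 809 of 12604 tested genes. For Mt1 these differences were 0.43 (95% interval −0.14 to 1.00) and 0.53 (95% interval −0.13 to 1.19). For Mt2 they were 0.26 (95% interval −0.53 to 1.04) and 0.71 (95% interval −0.19 to 1.62). For Mt3 the Smc3 change minus the Cre-ER change was −1.82 (95% interval −3.75 to 0.10, adjusted p = 0.467). With the clone block and the Cre-ER clones paired crosswise, a setting added after seeing the data, Mt3 passed (adjusted p = 0.0162). At this number of clones the intervals of Mt1 and Mt2 leave room for no difference and for one of about 2-fold or more.

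**Figure D4:**
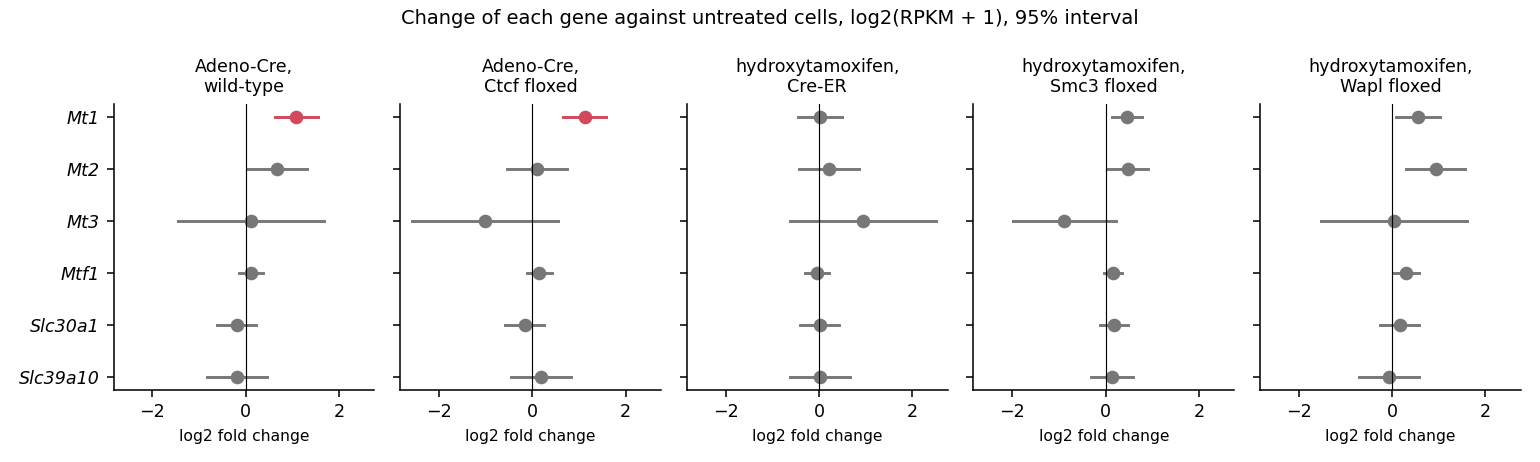
Log2 fold change (x axis) of each of the 6 genes against untreated cells in the 5 tested comparisons, with 95% intervals from limma; red marks an adjusted p under 0.05. Mt1 passes in the 2 Adeno-Cre comparisons, at 1.09 and 1.13, and the intervals of Mt3 are the widest.

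Over the 12 groups, Mt1 levels followed one order with few clear steps. The single Adeno-Cre library of Ctcf fl/fl Wapl fl/fl cells was highest at 2172 RPKM, followed by Adeno-Cre treated wild-type cells at 1217 ± 317 RPKM (SD, n = 2) and Ctcf fl/fl cells at 1086 ± 63.9 RPKM (SD, n = 2), which overlapped. Below a clear gap came hydroxytamoxifen-treated Smc3 floxed cells at 760 ± 62.2 RPKM (SD, n = 4) and Wapl fl/- cells at 718 ± 28.4 RPKM (SD, n = 2). The remaining 7 groups had means of 488 to 654 RPKM, and each overlapped its neighbour in this order. Mt1 and Mt2 did not keep a fixed proportion. The Mt1 to Mt2 ratio of RPKM was 1.31 to 3.86 (median 1.81) in untreated libraries. It was 2.02 and 2.09 in wild-type and 2.99 and 4.12 in Ctcf fl/fl cells with Adeno-Cre, and 3.29 and 3.86 in untreated Wapl fl/- cells. The coding sequences of Mt1 and Mt2 are alike, and how reads that match both were counted is not stated in the sources used here.

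Mt3, the metallothionein known from neurons and astrocytes, differed widely among clones. It was at most 1.58 RPKM in the wild-type, Wapl fl/- and Ctcf fl/fl Wapl fl/fl libraries, and 14 of the 16 others lay above that highest value. Untreated Smc3 floxed clones alone ran from 1.94 to 20.3 RPKM. In Cre-ER cells it went from 3.88 to 20.3 RPKM in clone 2 and from 15.1 to 12.5 RPKM in clone 3. In Smc3 floxed cells it was lower in the treated library of all 4 clones (7.06 to 4.25, 1.94 to 1.24, 20.3 to 5.77 and 4.30 to 1.91 RPKM in clones 1 to 4). The groups overlapped, and the difference of −0.88 (SE 0.53) had an adjusted p of 0.3. The listed astrocyte and neuron markers Snap25, Syt1 and Rbfox3 were below 1 RPKM in every library, while Gfap reached 7.14 RPKM and Aqp4 5.33 RPKM. The summed list was 0.873 to 8.27 RPKM in untreated and 6.14 to 12.0 RPKM in treated Cre-ER cells, 0.885 to 11.4 RPKM in untreated and 0.661 to 4.47 RPKM in treated Smc3 floxed cells, and at most 1.88 RPKM in every other group. The highest Mt3 levels, 20.3 RPKM, were in libraries of the same genotypes. In Cre-ER cells Gfap and Aqp4 had differences of 1.03 and 1.00 (adjusted p = 1 for each), and the part of such markers in the Mt3 values was not tested.

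Mtf1, which encodes the zinc-sensing factor itself, varied least, from 3.50 to 6.72 RPKM. Its largest difference over the 5 treatment comparisons was in Wapl fl/- cells, where it went from 5.01 to 6.24 RPKM in clone 1 and from 4.36 to 5.78 RPKM in clone 2 (0.30, SE 0.13, adjusted p = 0.259). In Smc3 floxed cells its treated library was the higher in all 4 clones, by 0.16 on average (SE 0.09, adjusted p = 0.267). Slc30a1, which exports zinc from the cytosol and is a known MTF-1 target, passed the test in none of the 5 treatment comparisons. It was 3.25 and 2.41 RPKM in untreated wild-type cells and 2.22 and 2.46 RPKM with Adeno-Cre, and 2.97 and 2.78 against 2.89 and 2.08 RPKM in Ctcf fl/fl cells. The log2 differences were −0.19 (95% interval −0.61 to 0.23) and −0.16 (95% interval −0.59 to 0.26). With hydroxytamoxifen the treated library was the higher in all 4 Smc3 floxed clones (ratios of 1.10, 1.47, 1.05 and 1.18 in clones 1 to 4) and in both Wapl fl/- clones (1.03 and 1.27). Those log2 differences were 0.19 (95% interval −0.11 to 0.49) and 0.16 (95% interval −0.27 to 0.58). Whether Slc30a1 and Mt1 changed by different amounts was not tested. Slc39a10, which imports zinc, was 2.89 and 2.86 RPKM in untreated and 2.13 and 2.69 RPKM in Adeno-Cre treated wild-type cells, and 1.80 and 1.84 against 2.42 and 2.00 RPKM in Ctcf fl/fl cells. Neither difference passed the test (adjusted p = 0.812 and 0.834).

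**Figure D5:**
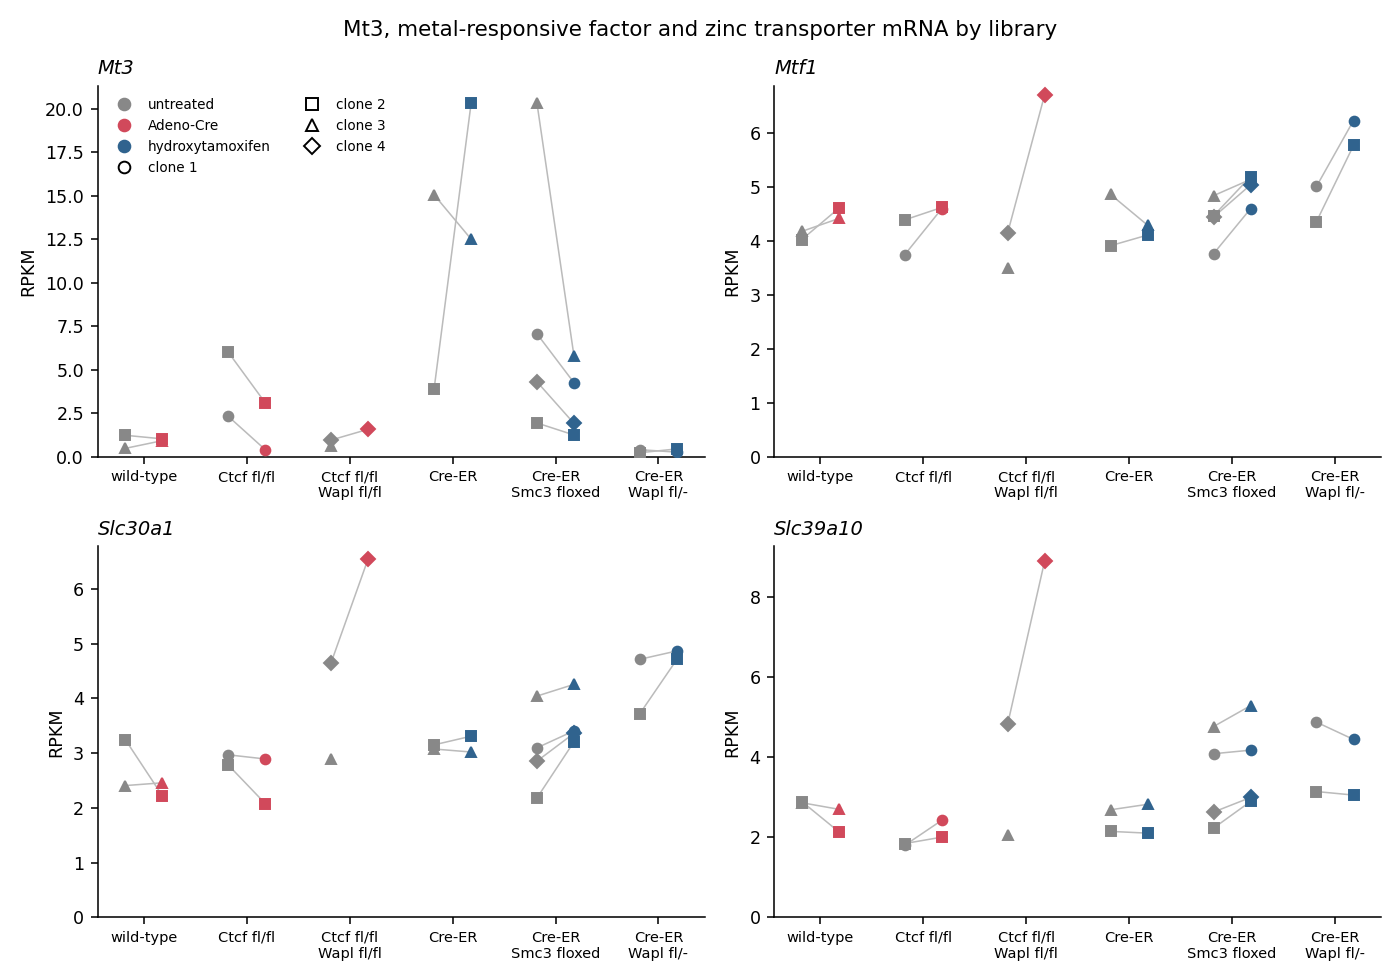
RPKM of Mt3, Mtf1, Slc30a1 and Slc39a10 in each library of the main RNA-seq table, drawn as for Mt1 and Mt2. Mtf1, Slc30a1 and Slc39a10 are highest in the single Adeno-Cre library of Ctcf fl/fl Wapl fl/fl cells (6.72, 6.55 and 8.90 RPKM), and Mt3 spreads widely among clones of the Cre-ER and Smc3 floxed genotypes.

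Over the 27 libraries, the genes most like Mt1 on the log2(RPKM + 1) scale were Faf1 (Pearson r = 0.92), the ATP synthase subunit gene Atp5b (0.88), the cystatin gene Cst6 (0.87), Acad11 (0.86) and Ttc1 (0.86). Mt2 followed at 0.75, Mtf1 at 0.55, Slc39a10 at 0.43, Slc30a1 at 0.21 and Mt3 at −0.24. Those most like Slc30a1 were the phosphatase gene Ptprj (0.87), the autophagy receptor gene Nbr1 (0.86) and the deubiquitinase gene Usp24 (0.85), with Slc39a10 at 0.82. These are descriptions, since libraries share clones, treatments and depth.

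Cells move zinc with exporters of the Slc30 family and importers of the Slc39 family, 24 of which were listed and 18 of which passed the filter on low values. In wild-type cells with Adeno-Cre limma called none of them (1 at an unadjusted p under 0.05, median log2 difference −0.09, against 0.04 over all tested genes), and in Ctcf fl/fl cells 1 of 18, the importer gene Slc39a6 (0.63, SE 0.15, adjusted p = 0.0132), with a median of 0.13 against 0.05. With hydroxytamoxifen limma called none in Cre-ER or Wapl fl/- cells (0 in each at an unadjusted p under 0.05), and 1 of 18 in Smc3 floxed cells, Slc30a9 (0.50, SE 0.15, adjusted p = 0.0308). The called genes were 1 of 18 beside 5.04% of all tested genes called higher in Ctcf fl/fl cells, and 1 of 18 beside 9.37% in Smc3 floxed cells. At an unadjusted p under 0.05 there were 2334 of 12604 tested genes in wild-type, 2498 in Ctcf fl/fl, 41 in Cre-ER and 1855 in Wapl fl/- cells. Blocking on clone gave 3 of 18 in wild-type, 3 in Ctcf fl/fl, 1 in Wapl fl/- and 5 in Smc3 floxed cells, where it called 23%, 25%, 14.6% and 36.6% of all tested genes in either direction, and 0 in Cre-ER cells. Fitted without untreated clone 1 or treated clone 2, the Ctcf fl/fl count was 0, and the Smc3 floxed count ranged from 0 to 2 when single libraries were left out.

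Genes of other stress, hormone, metal and interferon responses were read from further lists. Of 8 interferon-induced genes, 6 rose in wild-type cells with Adeno-Cre, the highest being the ubiquitin-like Isg15 (3.73, SE 0.69, adjusted p = 0.00781), the deubiquitinase Usp18 (3.24) and the factor Irf7 (3.11). Limma called none of the 8 in Ctcf fl/fl cells (1 at an unadjusted p under 0.05), and the difference between the genotypes passed the test for 2 of them, Ifit1 and Irf7 (adjusted p = 0.0202 and 0.0356), or for 6 of 8 with the clone block. Limma called none of 11 tested oxidative stress genes in wild-type cells (0 at an unadjusted p under 0.05) and 1 in Ctcf fl/fl cells, the glutathione synthesis gene Gclm (0.93, SE 0.16, adjusted p = 0.000967). The median log2 difference of the 11 in Ctcf fl/fl cells was −0.06, against 0.05 over all tested genes. Of 7 glucocorticoid response genes, Fkbp5 rose in Ctcf fl/fl cells (1.08, SE 0.27, adjusted p = 0.0151) and limma called none in wild-type cells (1 at an unadjusted p under 0.05). The list as a whole lay lower in Ctcf fl/fl cells, with a median of −0.52 against 0.05 over all tested genes. Of 12 copper and iron genes, the copper chaperone gene Atox1 rose in Ctcf fl/fl cells (1.21, SE 0.23, adjusted p = 0.00206) and limma called none in wild-type cells (3 at an unadjusted p under 0.05). Limma called none of 10 heat shock genes in either (1 in wild-type and 2 in Ctcf fl/fl cells at an unadjusted p under 0.05). In the libraries labelled Smc3 floxed with hydroxytamoxifen the heat shock gene Cryab rose (1.45, SE 0.15, adjusted p = 4.72e-06), as did Gclc, Me1, Atox1 and Atp7a, while Gclm and the iron exporter gene Slc40a1 fell. Limma called no gene of these 5 lists in Cre-ER or Wapl fl/- cells (0 and 7 at an unadjusted p under 0.05). Several of these calls depended on the clone block. With it, 17 of the 48 tested genes of the 5 lists passed in wild-type cells (15 higher, 2 lower), 17 in Ctcf fl/fl cells (10 higher, 7 lower), 21 in Smc3 floxed cells (14 higher, 7 lower) and 9 in Wapl fl/- cells (4 higher, 5 lower), and 0 in Cre-ER cells. By list, wild-type cells then had 8 of 8 interferon-induced, 1 oxidative stress, 2 heat shock (Hspe1 and Hspa8), 2 glucocorticoid and 4 copper and iron genes past the threshold, and Ctcf fl/fl cells had 2, 4, 3, 5 and 3 in the same order. Of those in Ctcf fl/fl cells, 1, 2, 0, 3 and 1 were lower. The lower glucocorticoid genes were Klf9, Sgk1 and Per1. The 9 in Wapl fl/- cells were 1 oxidative stress, 3 heat shock, 2 glucocorticoid, 2 copper and iron and 1 interferon-induced gene, among them Hspa1b and Sgk1 (adjusted p = 0.00923 and 0.00535 with the block). The shares of all tested genes called with the block, and the counts of all tested genes at an unadjusted p under 0.05, stand beside the zinc transporters above.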

How the data were processed

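RPKM values were deposited for the RNA-seq, with 27 libraries in 1 table and 2 libraries in another table normalized apart, per the file headers. GRO-seq values were deposited as TPM, 2 libraries pooled in each of the untreated and Adeno-Cre columns, per the file headers. These columns summed to 200000, the DRB and washout columns to 100000. The submitters' processing notes name the mm9 build and, without roles, HTSeq, bedtools, Bowtie 0.12.5, TopHat (1.3.1, 1.4.1) and MACS 1.4.2. The sources used here do not state whether counts were stranded. The number of per-sample columns left unused was 0.

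Here, log2(RPKM + 1) of 12604 genes with at least 1 RPKM in at least 2 libraries was fitted with limma 3.58.1 in R 4.3.3, 1 mean per group, with Benjamini-Hochberg adjustment over all genes and a threshold of 0.05. Such fold changes understate those of low genes. The fit was tested on simulated data. For 18150 of 18155 genes (99.97%), RPKM steps gave whole reads within 0.02 reads, which gave depth and length. GRO-seq depth is unknown.

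The members and gene lists were chosen with earlier results of these data known. Named were all members, list genes past the threshold (at most 6 zinc transporters and 3 of each other list by size, the rest of a count of 5 or fewer being named after their values were seen), and the 5 and 3 genes most like Mt1 and Slc30a1. A call in GRO-seq or in the Ctcf fl/fl Wapl fl/fl RNA-seq is a ratio of at least 2 or at most 0.5. Treated and untreated libraries of a genotype share clone numbers in the labels, which pairs them: their deviations from the group means correlated at 0.76 (wild-type), 0.68 (Ctcf fl/fl), 0.49 to 0.70 (Smc3 floxed), 0.47 (Wapl fl/-) and −0.20 (Cre-ER). The alternatives were a pseudocount of 0.1, no filter, median-of-ratios rescaling, the clone block, removal of the trend over transcript length, and leaving out each library.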

Additional observations from a re-analysis of the deposited data

Results flagged for a closer look

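Slc39a10 differed in direction between genotypes in 2 places. With Adeno-Cre it was lower in both wild-type clones and higher in both Ctcf fl/fl clones, and the difference between the changes was 0.37 on the log2(RPKM + 1) scale. The test of that difference did not pass (SE 0.43, adjusted p = 0.961 by limma). With hydroxytamoxifen it was higher in all 4 clones labelled Smc3 floxed and lower in both Wapl fl/- clones, and the mean change in Wapl fl/- cells minus that in Smc3 floxed cells was −0.21. That difference was not tested. No library of the Smc3 floxed groups stood apart from its other 3 for any member, in 12 checks.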

How the results depend on the processing

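Of 570 alternative values of the members' log2 changes, 556 were counted as the same. These kept their side of the threshold, and any that changed sign were not called and moved by less than the SE of the main fit. Of the rest, 6 fell below the threshold, 6 newly passed it and 2 changed sign by at least that SE without being called. Removing the trend over transcript length left 0 of 6 members past the threshold with Adeno-Cre in wild-type and 0 in Ctcf fl/fl cells, against 1 in each, and 115 genes in all against 408 in wild-type cells. With the clone as a replicate block the member counts were 2 in wild-type (Mt1 and Mt2), 2 in Smc3 floxed (Mt1 and Mt2, against 0) and 1 in Wapl fl/- cells (Mt2, against 0), and no other member call changed. All-gene counts with the block were 2899 against 408 (wild-type), 3155 against 966 (Ctcf fl/fl), 4616 against 1887 (Smc3 floxed), 1839 against 306 (Wapl fl/-), 876 against 184 (Ctcf minus wild-type change), 1343 against 155 (Smc3 minus Cre-ER change) and 312 against 18 (Wapl minus Cre-ER change). With the Cre-ER clones crossed, added after seeing the data, the last counts were 1335 and 268, with 1 member, Mt3, past the threshold for Smc3 minus Cre-ER. Leaving out 1 library gave 0 to 1 members in wild-type, Ctcf fl/fl and Smc3 floxed cells and 0 in the other comparisons. Without the filter on low values 713 genes passed in wild-type cells, 307 for Ctcf minus wild-type, 101 for Smc3 minus Cre-ER, 49 for Wapl minus Cre-ER and 1 in Cre-ER cells, and with a pseudocount of 0.1 the counts were 265 in wild-type cells and 5 for Wapl minus Cre-ER. Median-of-ratios rescaling used factors of −0.17 to 0.18 log2 for the single RNA-seq libraries and changed no member call. Apart from the length trend, the fewer libraries and the fewer or more genes tested, the cause was not tested. Depth limits Mt3, with a median of 16 reads per library.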

Other observations

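In nascent RNA of Ctcf fl/fl Wapl fl/fl cells, 21 of the 24 listed zinc transporters had at least 1 TPM without or with Adeno-Cre. Of these, 1 was at least 2-fold higher with Adeno-Cre (Slc30a10) and 8 at least 2-fold lower, beside 5.85% and 37.5% of all genes, with a median ratio of 0.64 against 0.59. Of the 8 interferon-induced genes 4 were at least 2-fold higher (Bst2, Irf7, Isg15 and Usp18), with a median ratio of 2.38. Fibroblast markers were lower in share, 7 of 9 at least 2-fold, among them the collagen genes Col1a1, Col1a2 and Col3a1. In mRNA of clone 4, 7 of 8 interferon-induced genes were at least 2-fold higher, with a median ratio of 13.4 against 1.09 over all genes, and none of 16 measured zinc transporters was 2-fold higher or lower. Of all 11693 genes measured in clone 4 mRNA, 8.16% were at least 2-fold higher with Adeno-Cre and 7.53% at least 2-fold lower. The oxidative stress gene Srxn1, the heat shock genes Hspa1b and Hsph1 and the glucocorticoid-induced gene Fkbp5 were each at least 2-fold higher in that library. These columns are pools or single libraries, so no test was made.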
